A study of Homo sapiens with 4 samples.

Results

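Peaks of accessible chromatin around 51 developmental transcription factor genes were examined in HepG2 cells with and without inhibition of the histone methyltransferase EZH2. The genes were 9 PAX, 8 LHX, 6 DLX and 10 NKX genes, the 5 sine oculis homeobox genes SIX2 to SIX6, and 13 further homeodomain genes of the OTX, EMX, EN, GSX, MSX, BARX and PITX families, taken as a fixed list of 51 among 20033 protein-coding genes. Every peak that overlapped the body of such a gene or the 10 kb on either side of it was included, whatever its value. Overlapping peaks of the libraries were merged, which gave 101 regions of 80551 in the whole series, in the windows of 42 of the 51 genes. Each region lay in the window of 1 gene, except for 1 region shared by DLX5 and DLX6.

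HepG2 is a human liver cancer line, described by the authors as hepatocellular carcinoma cells and labelled wild type and as epithelial cells of liver. ATAC-seq, in which a transposase cuts open chromatin and the fragments are sequenced, was run on 50000 cells per library, in 2 libraries of untreated cells (controls 1 and 2) and 2 libraries of cells given 5 µM Tazemetostat, an EZH2 inhibitor dissolved in DMSO, for 48 h (tazemetostat 1 and 2). The protocol describes a DNase pretreatment for the tazemetostat-treated cells, and the sources used here do not say whether the untreated cells received DNase or DMSO, so neither can be told apart from the drug. They also do not say whether the libraries of a group came from separate cultures, and each p-value measures only the spread between these libraries. A bulk library cannot tell a site that was open in more cells from a site that was more open in each cell.

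Homeodomain and paired-box proteins are transcription factors that set the identity of tissues in the embryo, among them brain, eye, kidney, limb, thyroid and heart. In cells of other lineages many of these genes are kept silent by polycomb complexes, in which EZH2 methylates lysine 27 of histone H3 over wide domains that often centre on CpG islands. Liver cells are defined by other factors, and most genes of the list have no known role in the adult hepatocyte.

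Promoter sequences of OTX1, DLX2, SIX4 and DLX6 are printed first, read 5′ to 3′ on the strand of the gene, in build hg38, with each CpG in capitals. Each is the longest stretch of the region without annotated untranslated bases, cut to at most 300 bases, so it can lie off the centre of the region. The LHX9 promoter, also called in every library, is not printed. The sequences of OTX1 and DLX2 are shown because they were the own promoters called under tazemetostat alone, and those of SIX4 and DLX6 because they belong to the few own promoters called in every library. OTX1 at chr2:63050530-63050829, plus strand, held 39 CpG in 300 bases, of which 211 lay in an OTX1 intron and 89 in an exon of a transcript without annotated coding sequence. DLX2 at chr2:172102901-172103090, minus strand, held 18 CpG in 190 bases, all upstream of the gene. SIX4 at chr14:60724352-60724651, minus strand, held 11 CpG in 300 bases upstream of the gene. For DLX6 the upstream sequence at chr7:97005253-97005552, plus strand, held 25 CpG in 300 bases, and the second one at chr7:97006301-97006600, plus strand, held 35 CpG in 300 bases, with 113 bases in coding sequence and 79 in an intron.
OTX1 promoter: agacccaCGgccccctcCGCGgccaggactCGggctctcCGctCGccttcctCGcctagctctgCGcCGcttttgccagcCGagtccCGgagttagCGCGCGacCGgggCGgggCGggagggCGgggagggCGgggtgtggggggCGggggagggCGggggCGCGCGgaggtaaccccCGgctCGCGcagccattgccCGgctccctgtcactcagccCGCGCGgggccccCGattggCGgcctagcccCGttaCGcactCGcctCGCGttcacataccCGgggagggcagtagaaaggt
DLX2 promoter: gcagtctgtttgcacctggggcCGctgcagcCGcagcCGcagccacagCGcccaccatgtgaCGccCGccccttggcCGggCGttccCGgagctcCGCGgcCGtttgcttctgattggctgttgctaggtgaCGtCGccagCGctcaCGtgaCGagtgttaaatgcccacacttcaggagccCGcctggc
SIX4 promoter: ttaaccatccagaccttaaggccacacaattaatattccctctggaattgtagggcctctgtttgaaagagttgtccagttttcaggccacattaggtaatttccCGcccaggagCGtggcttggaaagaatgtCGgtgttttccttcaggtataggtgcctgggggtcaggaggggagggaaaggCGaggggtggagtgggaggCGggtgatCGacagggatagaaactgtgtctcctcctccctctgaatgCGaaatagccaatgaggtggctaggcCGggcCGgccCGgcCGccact
DLX6 upstream promoter: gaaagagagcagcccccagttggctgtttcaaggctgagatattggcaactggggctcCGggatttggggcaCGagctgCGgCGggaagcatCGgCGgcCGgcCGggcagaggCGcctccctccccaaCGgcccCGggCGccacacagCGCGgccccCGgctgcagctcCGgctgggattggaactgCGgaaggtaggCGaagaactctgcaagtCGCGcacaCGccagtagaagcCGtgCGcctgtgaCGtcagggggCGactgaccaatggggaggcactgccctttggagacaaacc
DLX6 second promoter: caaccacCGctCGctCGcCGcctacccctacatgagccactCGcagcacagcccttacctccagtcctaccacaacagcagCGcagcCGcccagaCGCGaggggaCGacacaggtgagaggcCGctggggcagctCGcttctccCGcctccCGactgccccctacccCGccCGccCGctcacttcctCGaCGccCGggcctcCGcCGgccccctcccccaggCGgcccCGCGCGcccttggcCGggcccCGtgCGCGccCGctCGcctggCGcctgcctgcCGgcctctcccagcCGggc
The letters GGGCGG, a GC box bound by SP and KLF factors, were found on either strand at 6 places in the OTX1 sequence, at 3 places in the second DLX6 sequence, at 1 place each in the DLX2 and SIX4 sequences and at 0 places in the upstream DLX6 sequence.

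The libraries held between 17.2 and 26.6 M mapped tags. Of these, 4.32% and 5.69% lay in peaks in controls 1 and 2, and 11.5% and 9.81% in tazemetostat 1 and 2. The lists had 26133 and 34768 peaks in the controls and 55313 and 54157 peaks with tazemetostat. Per the file headers the fragment length setting was 200 in both controls and 144 in both tazemetostat libraries, and its part cannot be told apart from that of the drug. Of 10 hepatocyte genes, 6 and 7 had a peak at the own promoter in the controls and 6 and 8 with tazemetostat, while ALB and FGB had none there in any library. Of 10 markers of other cell types it was 1 gene in each control, LYZ among them, and 3 genes in each tazemetostat library, and PTPRC, CD3E, PECAM1, VWF, COL1A1 and DES had no own promoter peak in any library. The part of any of these values in the results below was not tested.

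To see how often chromatin at the developmental genes was called accessible, the peaks in their windows were counted in each library. Control 1 had 30 peaks, control 2 had 33, tazemetostat 1 had 73 and tazemetostat 2 had 57. Both treated libraries thus lay above both controls, although they also lay further apart from each other than the controls did. The means were 31.5 ± 2.12 and 65.0 ± 11.3 peaks (SD, n = 2 each), a 2.06-fold ratio. An exact two-sided permutation test over the libraries gave p = 0.33, below which 2 against 2 libraries cannot go. Over all peaks of the series the ratio of the means was 1.80, and over the windows of all coding genes it was 1.72. The difference of 33.5 peaks between the means shrank to 7 when each library was reduced to the same number of peaks. In that setting the totals of the series cannot differ. With peaks of at least 8-fold over the local background the difference was 2.5. The controls then had 4 and 3 peaks and the tazemetostat libraries 9 and 3, so that the groups overlapped. Over the whole series 7799 and 9096 peaks reached 8-fold in the controls and 17851 and 14802 with tazemetostat.

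**Figure D1:**
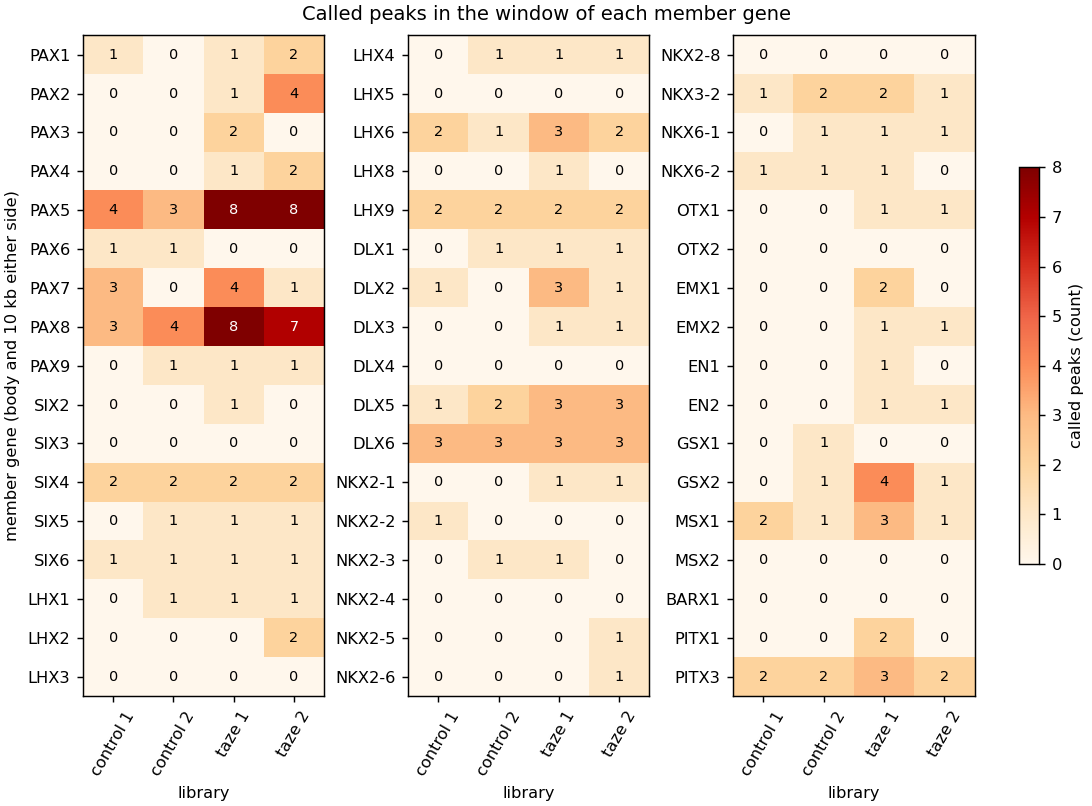
Number of called peaks in the window of each of the 51 genes (rows) in the 2 control and the 2 tazemetostat libraries (columns; taze, tazemetostat), with colour and figure giving the count. The highest counts were 8 peaks, at PAX5 in both tazemetostat libraries and at PAX8 in tazemetostat 1, and 9 genes have 0 peaks throughout.

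The normalised tag count of a peak is the number of its tags per 10 M mapped tags. Summed over the windows it was 545.4 in control 1, 635.3 in control 2, 1688 in tazemetostat 1 and 1132 in tazemetostat 2. The ratio of the means was 2.39, beside 2.13 for all peaks of the series (exact two-sided permutation p = 0.33, again the lowest that n = 2 each allows). Such a sum grows with the length that was called, which was 12.9 and 14.4 kb in the controls and 32.6 and 25.8 kb with tazemetostat. Per kb of peak the tag count was 42.2 and 44.1 in the controls and 51.8 and 43.8 with tazemetostat, so that the groups overlapped. The difference of 819.5 tags between the means was 550 with equal peak numbers and 103.3 at a local fold of at least 8. More sequence was called under tazemetostat, while the density within peaks differed by less than the distance between the treated libraries.

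The 101 regions were then sorted by the libraries that had a peak in them. In all 4 libraries 13 regions were called, 12.9% of the regions against 20.4% of all regions of the series. Another 12 regions were called in both tazemetostat libraries and 1 control (11.9% against 13.2%). Tazemetostat-only regions, with a peak in each treated library and none in the controls, numbered 16, or 15.8% against a background of 13.7%. The reverse, control-only, held for 0 regions, with 0.449% in the series. A single tazemetostat library had the only peak in 37 regions (36.6% against 33.6%), 22 of them in tazemetostat 1 and 15 in tazemetostat 2. A single control library had the only peak in 12 regions (11.9% against 12.6%), 8 in control 1 and 4 in control 2, and 11 regions had other combinations (10.9% against 6.0%). The share of tazemetostat-only regions was therefore close to that of the genome as a whole.

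**Figure D2:**
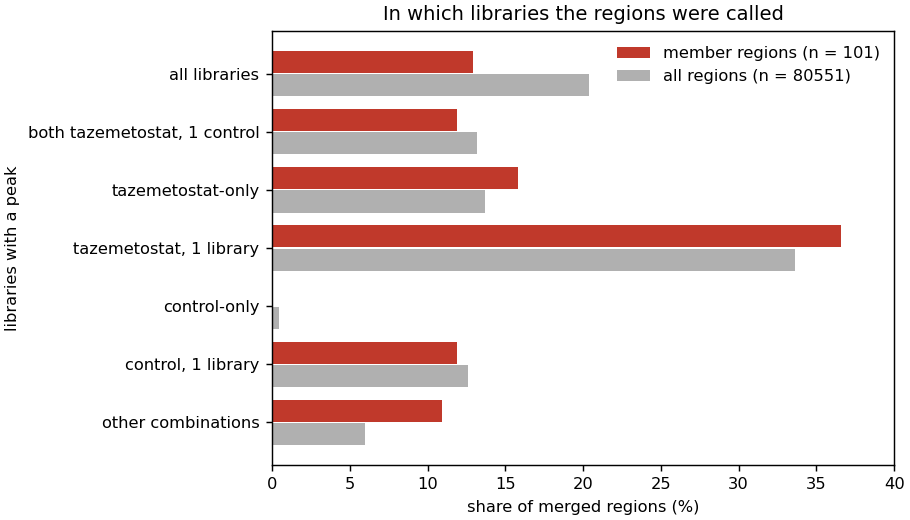
Share of merged regions (%, from 0) by the libraries in which they had a peak, for the 101 regions of the developmental genes (red) and all 80551 regions (grey). The shares lie close together in most classes, with 15.8% and 13.7% tazemetostat-only and 12.9% and 20.4% called in all libraries.

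The 16 tazemetostat-only regions lay in the windows of 13 genes, 25.5% of the list, where 32.5% of all coding genes had one. A control-only region was in the window of 0 genes of the list and of 1.35% of coding genes. These genes were PAX4, PAX5, PAX7, PAX8, LHX1, DLX2, DLX3, DLX5, NKX2-1, NKX6-1, OTX1, EMX2 and GSX2. The count depended on how peaks were chosen. With the same number of peaks from each library, those with the highest tag counts, 6 regions in 5 genes were tazemetostat-only and 1 region, at NKX3-2, was control-only, where 5.99% and 2.51% of all regions were. With peaks of at least 8-fold over the local background, 1 region was left, at LHX1, where 13.3% of all regions were tazemetostat-only. Leaving out a library lets regions qualify on fewer lists. It gave 18 regions without control 1, 26 without control 2, 31 without tazemetostat 1 and 38 without tazemetostat 2. Of all regions 17.4%, 26%, 36.4% and 37.2% were then tazemetostat-only. Each of these settings also changed the number of merged regions, so the counts are not shares of the 101 regions.

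Promoters of the developmental genes were mostly without a peak. An own promoter was taken as 1 kb upstream to 100 bp downstream of any annotated transcript start of the gene. Such a promoter had a region in 19 of the 51 genes, where 62.9% of coding genes had one, and in 3 genes, SIX4, LHX9 and DLX6, in all libraries, where 34.9% of coding genes did. No peak at the promoter was listed for 32 genes, or 62.7% against 37.1% of coding genes. By library, 5 and 10 genes had an own promoter peak in the controls and 14 and 11 with tazemetostat. A missing peak gives no value and does not show that the site was closed.

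Few promoters were called under tazemetostat alone. Tazemetostat-only regions covered the promoters of OTX1 and DLX2 alone, 2 genes of 51, where 8.79% of coding genes had one. A further 5 genes, PAX5, LHX6, DLX1, NKX3-2 and MSX1, had a promoter region in both tazemetostat libraries and 1 control. In 9 genes the promoter was called in 1 library only, namely LHX8, SIX2, EMX1 and PITX1 in tazemetostat 1, NKX2-5 in tazemetostat 2, PAX6 in control 1 and GSX1, LHX1 and NKX6-1 in control 2. Without control 2 the promoter count of tazemetostat-only genes was 6, and without tazemetostat 2 it was 7. Of all regions 26% and 37.2% were then tazemetostat-only. Promoters of all coding genes were not counted in these settings.

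Among the PAX genes, which encode paired-box factors, all 9 had at least 1 region and 42 regions were found in all. The peaks numbered 12, 9, 26 and 25 in controls 1 and 2 and tazemetostat 1 and 2, a mean of 10.5 ± 2.12 against 25.5 ± 0.707 (SD, n = 2 each; exact two-sided permutation p = 0.33). The summed tag counts were 222.4, 195.8, 601.1 and 468 in the same order. This family held the largest number of regions and the largest windows, 0.831 of 2.04 Mb. Its density was 50.5 regions per Mb, against 49.6 over the whole list. The totals of its treated libraries lay within 1 peak, but the genes did not all agree. With tazemetostat PAX2 had 1 and 4 peaks, PAX3 had 2 and 0 and PAX7 had 4 and 1, while the other PAX genes differed by at most 1 peak.

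PAX8, a factor of thyroid and kidney development, had 3 and 4 peaks in the controls and 8 and 7 with tazemetostat. The antisense gene PAX8-AS1 overlaps much of its body, so most of these regions lie in both. Upstream of the gene at chr2:113282872-113283501 the tag count was 38.3 and 35.8 with tazemetostat, with no control peak, and this was the highest tazemetostat-only region after that of OTX1. A second tazemetostat-only region, at chr2:113273032-113273529 in an intron, had 17.6 and 12.8. At chr2:113225803-113226363 a peak of 10.5 in control 2 stood against 28.7 and 18.8 with tazemetostat, and at chr2:113240906-113241282 the values were 17.2 in control 2 and 20.2 and 19.6 with tazemetostat. PAX8 therefore had control peaks in the same stretch in which the further regions were called.

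PAX5, which directs B cell identity, had 4 and 3 peaks in the controls and 8 and 8 with tazemetostat along its long gene. Its 3 tazemetostat-only regions had tag counts of 12.1 and 7.53 at chr9:36832139-36832605, beyond the 3′ end, of 16.6 and 13.9 at chr9:36840819-36841397, in an intron, and of 17.6 and 21.5 at chr9:36969118-36969792, in an intron. Its promoter region at chr9:37027546-37028108 had 13.9 in control 2, no peak in control 1, and 27.2 and 23.3 with tazemetostat. The intronic region at chr9:36995831-36996303 had 8.73 in control 1 and 8.06 and 11.3 with tazemetostat, so its values overlapped. All 3 tazemetostat-only regions of PAX5 thus lay outside its promoters.

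PAX7, a factor of muscle stem cells, had 3 and 0 peaks in the controls and 4 and 1 with tazemetostat, so the groups overlapped, and 1 tazemetostat-only region in an intron at chr1:18643518-18643897 with 12.6 and 9.79. PAX4, which acts in the endocrine pancreas, had no control peak and a tazemetostat-only region upstream at chr7:127620678-127621129 with 8.06 and 6.02, values near the lowest listed in these libraries (5.04 and 4.89). The lowest values listed in controls 1 and 2 were 6.4 and 5.04, so 6.02 lay below any value listed in control 1. PAX2, a kidney and eye factor, had no control peak and 1 and 4 peaks with tazemetostat, but none of its 5 regions was called in both treated libraries. PAX3, of neural crest and muscle, had 2 peaks in tazemetostat 1 alone. PAX6, the eye and pancreas factor, was the single gene of the list with fewer peaks in both treated libraries than in both controls (0.504% of coding genes), with 1 peak in each control, of 8.14 at its promoter in control 1 and of 7.98 in an intron in control 2. PAX1 had 1, 0, 1 and 2 peaks, and PAX9 had 0, 1, 1 and 1.

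The sine oculis genes SIX2 to SIX6, whose proteins act with EYA cofactors in eye, muscle and kidney, had 5 regions in the windows of 4 genes. The peaks numbered 3, 4, 5 and 4, so that the groups overlapped (exact two-sided permutation p = 0.67, n = 2 each), with summed tag counts of 44.8, 78.14, 146.6 and 107.7. SIX4 had 2 peaks in every library, one at the promoter printed above. SIX6, a retinal factor, had 1 in every library, in the intron of the neighbouring C14orf39. SIX5, which adjoins DMPK, had a region at chr19:45770465-45771022, over DMPK and upstream of SIX5, with 36.1 in control 2 and 57.4 and 48.2 with tazemetostat. SIX2, of the nephron progenitors, had a promoter peak of 19.7 in tazemetostat 1 alone. SIX3 had no peak. No tazemetostat-only region fell in this family.

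LHX genes encode LIM-homeodomain factors of brain, pituitary and gonad, and had 13 regions in the windows of 6 genes. Peaks numbered 4, 5, 8 and 8, with summed tag counts of 54.71, 47.88, 126 and 96.06 (exact two-sided permutation p = 0.33, n = 2 each). LHX9, a factor of the early gonad, had 2 regions in every library. LHX6, of forebrain interneurons, had a promoter region at chr9:122213827-122214440 with 16.3 in control 1 and 18.1 and 20 with tazemetostat. LHX1, of kidney and head development, had a tazemetostat-only region at chr17:36948704-36949167 with 9.57 and 7.15, which lay at the promoter of AATF, a broadly acting gene. Its own promoter had a peak of 10.9 in control 2 alone. LHX2 had 2 peaks in tazemetostat 2 alone, and LHX8 had 1 peak, of 7.56 at its promoter, in tazemetostat 1 alone. LHX4 had 0, 1, 1 and 1 peaks, in 2 different regions. Only 1 of the 13 regions was tazemetostat-only, and it sat at the start of another gene.

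DLX genes are vertebrate relatives of Distal-less that lie in neighbouring pairs and pattern limb, jaw and forebrain. They had 10 regions in the windows of 5 genes. The peaks numbered 4, 5, 10 and 8, with summed tag counts of 73.99, 106.3, 268.6 and 202.6 (exact two-sided permutation p = 0.33, n = 2 each). At the DLX1 and DLX2 pair, which acts in forebrain interneurons, the DLX2 promoter region at chr2:172102777-172103090 had 25.2 and 25.6 with tazemetostat and no control peak. It also covered the start of the divergent DLX2-DT transcript. The DLX1 promoter region at chr2:172085114-172085660 had 21.0 in control 2 and 39.8 and 32.8 with tazemetostat. Both neighbouring promoters were therefore called in both treated libraries and in at most 1 control.

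At the DLX5 and DLX6 pair, which shapes the limb and craniofacial skeleton, DLX6 had 3 peaks in every library and DLX5 had 1 and 2 in the controls and 3 and 3 with tazemetostat. A tazemetostat-only region at chr7:97024045-97024630, over DLX5 coding sequence, had 21.7 and 13.2. The region upstream of DLX5 at chr7:97027435-97028072 had 8.82 in control 2 and 19.7 and 17.7 with tazemetostat. DLX3, of hair and tooth, had a single region, tazemetostat-only, upstream at chr17:49998149-49998609 with 15.1 and 18.8. The DLX6 end of this cluster was thus already called in both controls.

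NKX genes had 10 regions in the windows of 8 genes. The peaks numbered 3, 5, 6 and 5 and overlapped between the groups (exact two-sided permutation p = 0.67, n = 2 each), as did the summed tag counts of 47.12, 65.92, 101.9 and 53.12. NKX2-1, the factor of thyroid and lung, had a tazemetostat-only region upstream at chr14:36525504-36525980 with 22.7 and 15.1. NKX6-1, of pancreatic beta cells and motor neurons, had a weak one upstream at chr4:84503922-84504233 with 7.56 and 6.4, while its own promoter had a peak of 6.3 in control 2 alone. The lowest value listed in control 1 was likewise 6.4. NKX3-2, of the axial skeleton, had a promoter region at chr4:13544841-13545326 with 10.5 in control 2 and 24.7 and 14.3 with tazemetostat. A region of NKX6-2 inside the neighbouring INPP5A, at chr10:132774832-132775350, had 28.5 and 29.8 in the controls, 21.2 in tazemetostat 1 and no peak in tazemetostat 2. The heart factor NKX2-5 and its relative NKX2-6 had 1 peak each, in tazemetostat 2 alone, NKX2-3 had 1 in control 2 and tazemetostat 1, and NKX2-2 had 1 in control 1. As with SIX2 to SIX6, these genes showed no separation of the groups in calls.

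The remaining homeodomain genes pattern the forebrain (OTX, EMX, GSX), the midbrain (EN), teeth and face (MSX, BARX) and hindlimb or lens (PITX). They had 21 regions in the windows of 10 of 13 genes. Peaks numbered 4 and 5 in the controls and 18 and 7 with tazemetostat, with summed tag counts of 102.4, 141.2, 444.1 and 204. The treated libraries differed from each other by more than the group means, which were 8 peaks apart (4.5 ± 0.707 against 12.5 ± 7.78, SD, n = 2 each; exact two-sided permutation p = 0.33). Most of the excess in this set therefore came from tazemetostat 1.

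OTX1, a forebrain factor, had the highest tazemetostat-only region of the list. At chr2:63050292-63051089, over its own promoter, the tag count was 62.0 in tazemetostat 1 and 29.7 in tazemetostat 2, with no peak in either control. The fold over the local background was 4.13 and 5.13, close to the 4-fold limit of the peak caller. GSX2, of ventral forebrain progenitors, had a tazemetostat-only region upstream at chr4:54090855-54091767 with 13.6 and 22.6. The region next to it, at chr4:54091783-54092188, had 6.3 in control 2 and 7.56 in tazemetostat 1. The GSX2 window had 0, 1, 4 and 1 peaks, so the groups overlapped. EMX2, of cortex and urogenital tract, had a tazemetostat-only region upstream at chr10:117534428-117534841 with 13.6 and 10.5. MSX1, of tooth and palate, had a promoter region at chr4:4859259-4859944 with 29.0 in control 2 and 32.8 and 14.3 with tazemetostat, so the control value lay between the treated ones. EN2 had 1 peak in each treated library, of 12.1 and 10.2, at different places, and EN1 had 1 of 25.2 in tazemetostat 1. The promoters of EMX1 (21.2) and PITX1 (17.1 and 18.1 in 2 adjacent peaks) were called in tazemetostat 1 alone, and that of GSX1 (9.24) in control 2 alone. PITX3, of lens and dopaminergic neurons, had 2, 2, 3 and 2 peaks.

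No peak was listed in any library for SIX3, LHX3, LHX5, DLX4, NKX2-4, NKX2-8, OTX2, MSX2 or BARX1, that is for 9 of 51 genes, while 86.8% of all coding genes had at least 1 region. Over the whole list, 10 genes had more peaks in each treated library than in either control (PAX2, PAX4, PAX5, PAX8, DLX3, DLX5, NKX2-1, OTX1, EMX2 and EN2), 19.6% of the list where 31.2% of coding genes did. The list has short genes, with a median length of 6703 bp against 27471 bp. Its windows held 49.6 regions per Mb, against 35.3 in the windows of all coding genes. The part of gene length in the shares per gene was not tested.

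Where a region had exactly 1 peak in every library, its tag counts were compared with limma on log2(normalised tag count + 1), adjusted with the Benjamini-Hochberg method over all 15383 such regions. The scale understates the change of low values. Of the 13 regions at the developmental genes, 3 were higher with tazemetostat at an adjusted p of 0.05 and 0 were lower, where 42.7% and 0.247% of all tested regions were. At an unadjusted p of 0.05 it was 5 higher and 0 lower, where 58.0% and 0.442% of all tested regions were. In all 13 both treated values lay above both control values, as they did in 81.6% of all tested regions. The median log2 difference was 0.56, below the 0.70 of all tested regions. A common upward shift of this size depends on scaling by mapped tags. With each library centred on its median, the median of all tested regions moved to -0.06 and that of the developmental genes to -0.20, 10 of the 13 regions turned negative, and 0 of the 13 and 0 of all 15383 regions were called. At an unadjusted p of 0.05 it was then 0 of the 13, and 468 higher and 1188 lower of all. Without tazemetostat 1, and likewise without tazemetostat 2, the number called was 0 (1 and 5 at an unadjusted p of 0.05). Over all tested regions it was 0 as well (3238 and 5977 higher at an unadjusted p of 0.05), the treated arm then being 1 library that is assumed to vary like the controls.

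The 3 regions that passed were at LHX9, PAX5 and PAX8. The LHX9 region at chr1:197902340-197903282 had 17.5 and 9.66 in the controls and 35.8 and 23.7 with tazemetostat, a log2 difference of 1.10 ± 0.33 (SE; limma adjusted p = 0.0182). Its centre lay at -9091 bp from the LHX9 start, at the promoter of C1orf53. In the PAX5 intron at chr9:36867929-36868584 the values were 23.3 and 23.1 against 50.4 and 39.9, a log2 difference of 0.92 ± 0.30 (SE; limma adjusted p = 0.0239). At chr2:113218179-113218878, over coding sequence of PAX8, they were 38.4 and 30.3 against 64.0 and 66.6, a log2 difference of 0.92 ± 0.30 (SE; limma adjusted p = 0.0245). With median centring these differences were 0.34, 0.16 and 0.16. The lengths called were greater under tazemetostat at LHX9 (781 and 792 bp against 594 and 378 bp) and at PAX8 (606 and 699 bp against 482 and 458 bp), and per kb of peak 1 of the 13 regions passed, that at PAX5, where 32.9% of all tested regions were higher.

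The promoters called in every library did not pass. The second DLX6 promoter had 20.4 and 26.9 in the controls and 44.8 and 35.0 with tazemetostat (log2 difference 0.73, limma adjusted p = 0.054). The SIX4 promoter had 16.3 and 14.7 against 28.7 and 22.2 (log2 difference 0.67, limma adjusted p = 0.0675). The LHX9 promoter at chr1:197915784-197916335 had 11.6 and 8.82 against 20.7 and 11.7 (log2 difference 0.58, limma adjusted p = 0.125), so that control 1 and tazemetostat 2 were nearly equal. At the upstream DLX6 promoter, next to the second one, the values of 16.9 and 13.0 against 17.1 and 17.3 were the closest of all 13 (log2 difference 0.20, limma adjusted p = 0.544). Of the other 6 regions, those in the PITX3 window lay at the promoters of ELOVL3 (0.56) and GBF1 (0.52), and the second SIX4 region (0.47), the SIX6 region (0.44), the far upstream PAX8 region (0.41) and the region between DLX5 and DLX6 (0.36) had log2 differences with adjusted p from 0.124 to 0.29. With median centring only LHX9 upstream, PAX5 and PAX8 stayed positive among the 13.

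**Figure D3:**
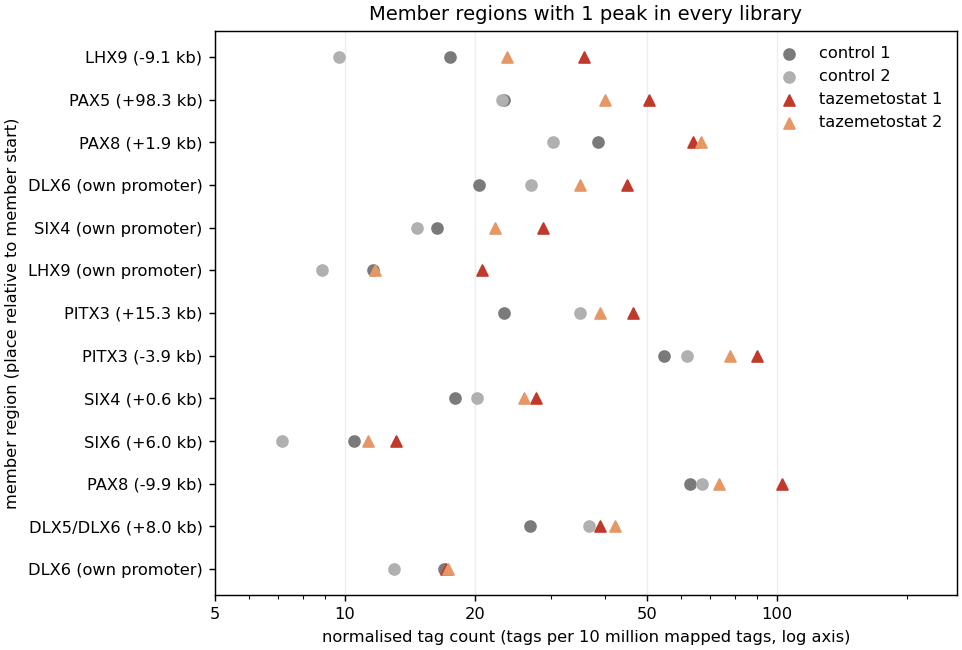
Normalised tag count (tags per 10 M mapped tags, log axis) of the 13 regions with 1 peak in every library, 1 point per library (circles for controls, triangles for tazemetostat). Rows are ordered by log2 difference. They are labelled as own promoter where the region lay at one, and otherwise with the distance from the gene's nearest start. Both triangles lie to the right of both circles in each row, widely at PAX5 and PAX8 (+1.9 kb) and narrowly at the upstream DLX6 promoter in the last row.

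Peaks at the developmental genes stood less far above their surroundings than other peaks. The median fold over the local 10 kb background was 4.67 and 4.77 in the controls and 4.97 and 4.95 with tazemetostat, where the medians of all peaks were 5.92, 5.65, 6.09 and 5.75. A fold of at least 8 was reached by 13.3%, 9.09%, 12.3% and 5.26% of the peaks in controls 1 and 2 and tazemetostat 1 and 2, against 29.8%, 26.2%, 32.3% and 27.3% of all peaks. Their tag counts were nevertheless not low. The median tag count with tazemetostat was 39.9 against 31.0 in regions called in all libraries, 16.1 against 10.7 in tazemetostat-only regions and 10.2 against 7.91 in regions of 1 tazemetostat library. Peaks of the list thus combined higher tag counts with lower local folds than other peaks, and the lower folds were seen in all 4 libraries. Of the tazemetostat-only regions, that at LHX1, at the AATF promoter, was the one with local folds above 8 in both treated libraries (14.01 and 11.59).

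**Figure D4:**
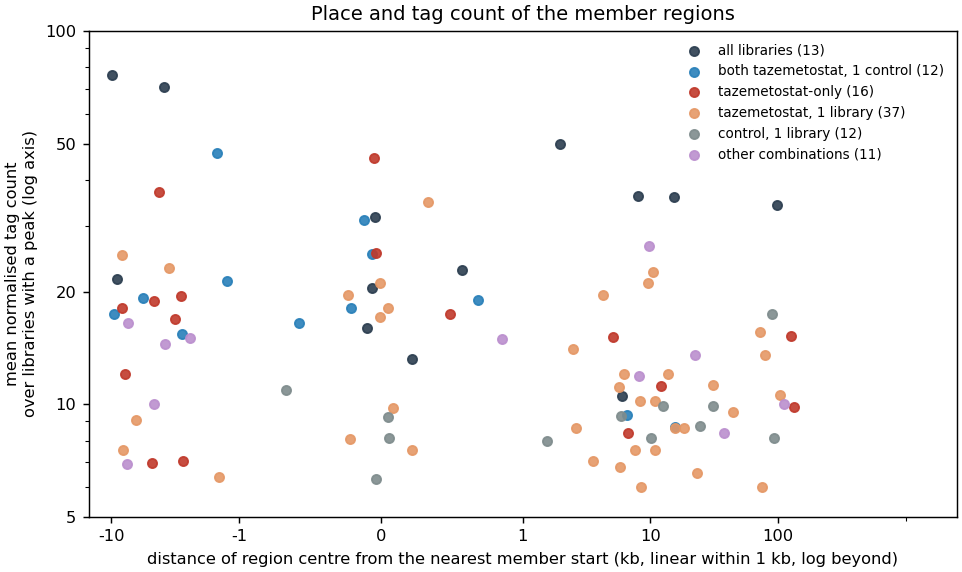
Mean normalised tag count over the libraries with a peak (tags per 10 M mapped tags, log axis) against the distance of the region's centre from the nearest start of a listed gene (kb, linear within 1 kb and log beyond), 1 point for each of the 101 regions, coloured by the libraries with a peak. Regions lie on both sides of the starts, at a median distance of 5749 bp, and tazemetostat-only regions (red) range from weak ones below 10 to OTX1 at the start.

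The sequence under the regions was richer in CpG than that of other regions. In the central 300 bp the median GC content was 59.7% against 52.3% and the median number of CpG was 14 against 5. The observed over expected CpG ratio compares the CpG count with that given by the C and G content alone, and values above 0.6 are typical of CpG islands. It was above 0.6 in 43.6% of the regions and in 17.7% of all regions. At own promoters 20 of 22 regions were above 0.6, where 58.2% of all promoter regions were. Away from the promoter of any gene, coding or not, it was 25.4% of 71 regions against 4.94%. By class it was 76.9% against 36.9% in regions of all libraries, 43.8% against 13.5% in tazemetostat-only regions and 36.4% against 17.1% in those with other combinations. In regions of 1 control library it was 3 of 12, or 25.0% against 9.13%, and the 8 regions of control 1 alone had a median ratio of 0.22, against 0.23 in all such regions. Higher CpG content was thus also seen in regions called in every library, controls included, but not in those of control 1 alone.

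**Figure D5:**
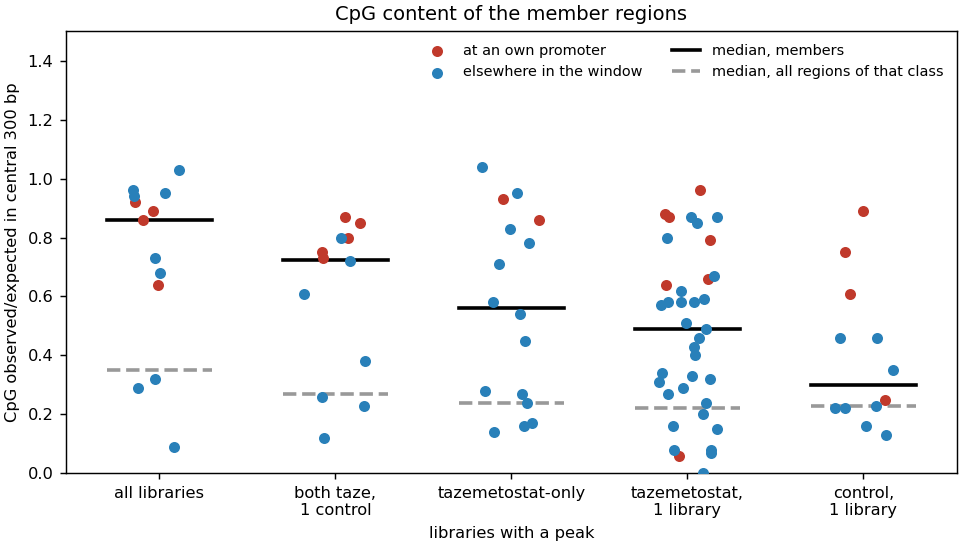
CpG observed over expected ratio in the central 300 bp of the regions of the developmental genes, by the libraries with a peak, 1 point per region (red, at an own promoter; blue, elsewhere in the window), with the median of these regions (black line) and of all regions of the class (dashed grey line). The 11 regions with other combinations are not drawn, and the black line lies above the grey one in all 5 classes drawn.

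Among short motifs searched on both strands of the central 300 bp, GGGCGG was found in 41.6% of the regions against 21.5% of all regions. The homeodomain core TAATTA was found in 3.96% against 3.64%, in 4 regions. The AP-1 motif TGACTCA was found in 2.97% against 8.25%, the HNF4 motif CAAAGTCCA in 0.99% against 1.85% and the CTCF consensus in 0.0% against 0.413%. Of the 16 tazemetostat-only regions, 7 held GGGCGG, or 43.8% against 19.0% of all tazemetostat-only regions. TAATTA was held by 2 of the 16, or 12.5% against 4.28%. A match is a run of letters and does not show that a factor was bound.

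Other homeobox genes gave a frame for these counts. Of 51 other developmental homeobox genes, 3 had an own promoter region in all libraries and 37 had none, against 3 and 32 in the list described here, and 9 had a tazemetostat-only region in the window (17.6% against 25.5%). More peaks in each treated library than in either control were found at 13 of them (25.5% against 19.6%), and 3 had a tazemetostat-only own promoter, against 2. Of 6 homeobox genes of liver cells, 3 had a promoter called in all libraries and 1 had none. Of 15 broadly expressed homeobox genes it was 7 and 2. Promoters called in all libraries thus made up 5.88% of both developmental lists.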

How the data were processed

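ATAC-seq was analysed from 1 deposited peak list per library. The submitters' processing notes and the methods name Trim Galore 0.6.6 for trimming, Bowtie2 2.3.5.1 for alignment to hg38 (inserts up to 2000 bp) and HOMER 4.11.1 for peak calling, which the authors ran on each library separately, without pooling. Per the file headers, peaks of 300 bp with at least 4-fold density over the surrounding 10 kb (local p 0.0001) were stitched into regions, at a false discovery rate of 0.001, where the methods state 0.05. Shifting of tags for the transposase is not given in the sources used here. Normalised tag counts as deposited are a signal, scaled by the authors to 10 M mapped tags. The deposited fold over the local background is a ratio and was used for a stricter filter, and the deposited region length in bp gave the tags per kb. The deposited score, the deposited p-value and the deposited clonal fold were not tested. Multiplied by the mapped tags of the headers, 100.0% of the deposited values lay within 0.25 of a whole tag number and their sums equalled the header totals. As an alternative added after seeing the data, limma's voom was run on these whole numbers with the headers' library sizes. The lowest tag counts listed were between 4.89 and 6.4, and a position without a peak has no value. Counting intervals are not given, since PCR duplicates without molecular identifiers are not independent.

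Peaks were merged across libraries at an overlap of at least 1 bp and annotated with GENCODE release 44. Windows were gene bodies with 10 kb on either side. Library totals were compared by exact two-sided permutation, and regions with 1 peak per library with limma 3.58.1 in R 4.3.3 (pseudocount 1, no block, Benjamini-Hochberg over all such regions). Groups and replicate numbers came from the sample titles. The merging and the limma step were tested on simulated data. Sequence was read from the hg38 genome in the central 300 bp of the regions, of which 2.89% lay off the primary chromosomes and were left out. Named are all genes with an own promoter region, all tazemetostat-only regions and all regions tested in limma, and further regions of the list were named after their values were seen. The genes, the comparison lists and the tests were chosen with earlier results of these data known. Alternatives covered the peak filter, equal peak numbers in every library, the window and promoter size, the merging overlap, scaling, pseudocount, a filter on low values, a replicate block and leaving out each library.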

Additional observations from a re-analysis of the deposited data

How the results depend on the processing

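With peaks of at least 8-fold over the local background, tazemetostat-only regions were 1 in 1 gene, with 0 at an own promoter (13.3% of all regions). When each library was reduced to its 26133 highest peaks they were 6 in 5 genes, with 1 control-only region, where 5.99% and 2.51% of all regions were tazemetostat-only and control-only. With the gene body alone they were 7 in 6 genes and with 2 kb on either side 8 in 6 genes. The share of all regions stayed at 13.7%, and a narrower window takes in less sequence around every gene. Coding genes as a whole were not counted in these windows. The differences of 33.5 peaks and 819.5 tags became 2.5 and 103.3 at 8-fold, 7 and 550 with equal numbers, 18.5 and 462.6 with the gene body alone and 23 and 547.1 with 2 kb, all in the same direction. Without the genes on chromosomes 14, 17 and 20, which are gained in HepG2, they were 30 peaks and 748.6 tags. Leaving out 1 library at a time gave 18 to 38 tazemetostat-only regions in 14 to 24 genes, 0 to 8 control-only regions and 3 to 7 own promoters. Of all regions 17.4% to 37.2% were then tazemetostat-only and 1.03% to 7.58% control-only. Classes then rest on fewer lists by construction. The differences ranged from 25.5 to 41.5 peaks and from 541.2 to 1098 tags. The median log2 difference ranged from 0.43 to 0.68, where that of all tested regions ranged from 0.57 to 0.80.

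The limma values depended on scaling. With each library centred on its median, 0 regions were called, as over all tested regions (limma adjusted p of the 13 from 0.528 to 0.981), the median log2 difference was -0.20, and negative values arose at LHX9 promoter (-0.18), PITX3 (-0.20 and -0.24), SIX6 (-0.32), SIX4 (-0.29 and -0.09 at its promoter), PAX8 far upstream (-0.35), the upstream and second DLX6 promoters (-0.56 and -0.03) and between DLX5 and DLX6 (-0.40). With quantile normalisation, chosen after seeing the data, 0 were called, again as over all tested regions (limma adjusted p of the 13 from 0.58 to 0.994), the median was -0.12, and the values were -0.12 for the LHX9 promoter, -0.16 and -0.06 for PITX3, -0.17 for SIX6, -0.28 and -0.09 for SIX4, -0.15 for PAX8, -0.52 for the upstream DLX6 promoter and -0.35 between DLX5 and DLX6. Per kb of peak 1 region was called (32.9% of all) and the median was 0.38. The cause was not tested. A pseudocount of 5 and a filter at a mean tag count of 10 gave 4 and 3 called regions of 13, where 48.9% and 43.4% of all tested regions were higher.

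With the replicate number as a block, 3 regions were called higher and 0 lower, and the block changed no call at these genes, while it moved the calls over all tested regions from 6569 to 5046. Libraries of the same number showed no shared deviation of single regions from their group means (Pearson r = -0.00246 over 15383 regions). This correlation cannot show whether libraries of the same number were prepared together. On whole tags, limma's voom called 3 higher and 0 lower, with a median log2 difference of 0.51, where 47.8% of all tested regions were higher. Other count models that had been planned were not run. Peak lists limit depth to the called sites, and 2 libraries per group cannot give a permutation p below 0.33.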
